A study of Mus musculus with 8 samples.

Results

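The AP-1 and immediate early genes were followed through the clusters of single cells from mouse white preadipocytes and differentiating adipocytes. The members were named by symbol (Fos, Fosb, Fosl1, Fosl2, Jun, Junb, Jund, Egr1, Ier2 and Atf3), and their entries were read from the table in which each cluster of cells is compared with all other cells. Of the 10 members, 8 had an entry for at least 1 cluster, and they held 42 of the 13337 entries of the table, which names 3896 genes by an undamaged symbol. Fosl1 and Atf3 had no entry.

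AP-1 is a transcription factor made of pairs of basic leucine zipper proteins. FOS family proteins pair with JUN family proteins, JUN proteins can also pair with each other, and the pairs bind short DNA elements in promoters and enhancers. Many of these genes are immediate early genes, which are transcribed within minutes of a signal such as serum, a growth factor or mechanical stress without the need for new protein, and the transcripts of many of them are short-lived. In preadipocytes, Fos and Jun family genes are known to be induced soon after the hormones that start differentiation are added. EGR1 is a zinc finger transcription factor and IER2 a small nuclear protein, both induced along with FOS.

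The cells came from the inguinal white adipose tissue of C57BL/6 mice that were either wild type (WT) or Hmgn1-/- and Hmgn2-/- (DKO, lacking the chromatin proteins HMGN1 and HMGN2). They were grown on collagen-coated plates and captured in droplets as preadipocytes (day 0) or on day 6 of differentiation, which was started with a medium of insulin, dexamethasone, IBMX, T3 and rosiglitazone. All cells were trypsinized before capture. Each genotype was sampled on each day with 2 samples, 8 in 4 groups, and by the study's methods the mice were young adults and the cultures biological duplicates, with the number of animals behind each not given there. The study examined the AP-1 proteins FRA2 (the product of Fosl2) and JUN in browning, the turn of white fat cells towards heat-producing ones. The question here is in which cell populations the transcripts of these genes were found.

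The table pools the cells of all 8 samples and gives no value by sample, by genotype or by day. Therefore no value below has a replicate or an error, no test was made, the loss of HMGN1 and HMGN2 could not be checked per sample, and WT and DKO cells or the days were not compared. What the table gives for each entry is the detection of a gene, which is the percentage of cells with at least 1 transcript of it, once within the cluster and once among the rest of the cells (called elsewhere below). A difference of at least 10 percentage points was called higher or lower. The clusters were themselves formed from gene expression in these cells, so the differences between them are a description. A gene without an entry in a cluster missed the authors' minimums there and is not at 0. Detection rises with the depth of a cell as well as with the level of a transcript, and the depth per cell and the number of cells are unknown, so detections of different genes were not read as levels and no counting intervals are given. No cell type that should lack these transcripts is in the table, so the detection that free RNA in the droplets can give was not gauged.

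The 12 clusters, numbered 0 to 11, held between 1.5% (cluster 11) and 14.3% (cluster 0) of the cells, as solved from the detections themselves. All 4 proliferation markers looked up (Mki67, Top2a, Cenpf and Pclaf) were higher in clusters 5, 6 and 9, against 72.1%, 51.9% and 76.9% of all entries there. Of 8 adipocyte markers, 7 were higher in cluster 11, where 1104 of all 2487 entries were. In cluster 4, 7 were higher, where 17 of all 2072 entries were. In cluster 1, 7 were lower, where 153 of all 729 entries were. In cluster 10 all 8 were lower, as were 98.5% of all its entries. Clusters 4 (9.59% of the cells) and 10 (3.22%) stood apart. In cluster 4 the median entry had a detection of 10.8% against 63.0% elsewhere, and in cluster 10 of 8.1% against 62.3%. None of the 5 immune, 4 endothelial or 4 glial markers looked up had an entry. Cluster 1 was marked most by Abi3bp and Cxcl14, cluster 7 by Agt and Ogn, and cluster 11 by Gpat3 and Plin1. Clusters are called by number here, with no cell type name.

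Over all cells, Egr1 was detected in 85.1% and Junb in 83.7% of the cells, Jund in 79.7%, Ier2 in 71.6%, Fos in 68.1%, Jun in 64.8%, Fosl2 in 54.1% and Fosb in 44.9%. With no value per sample, neighbours in this order cannot be told apart beyond their error. Detection was thus broad for all 8 members. It was highest in cluster 1 for Fos, Fosb, Junb, Jund, Egr1 and Ier2 among the clusters with an entry, and in cluster 7 for Jun. Fosl2 had only entries in which it was lower than in the other cells.

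**Figure D1:**
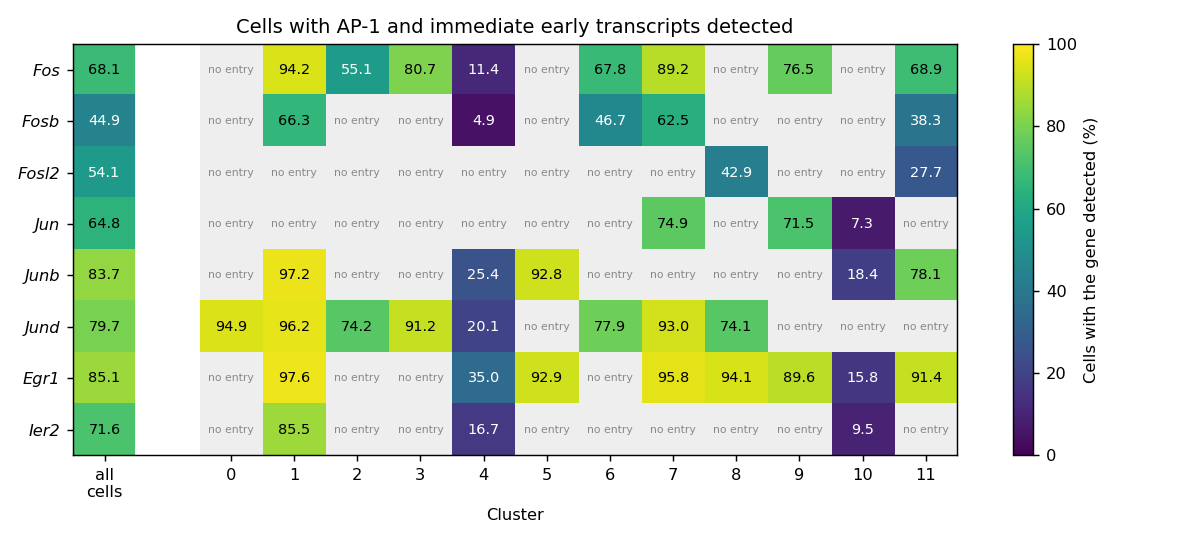
Percentage of cells in which each member was detected, over all cells (left column) and inside each of the 12 clusters, by colour and number, with grey fields where a gene has no entry. Clusters 4 and 10 hold the lowest values of every member listed there, from 4.9% for Fosb to 35.0% for Egr1, and cluster 1 the highest of 6 members, from 66.3% for Fosb to 97.6% for Egr1.

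Among the FOS family, Fos had the widest range. Fos (GENCODE M21, mm10, chr12:85473890-85477273, plus strand, protein-coding) encodes the FOS subunit that cannot form a stable pair with itself and relies on a JUN partner. Its detection was 94.2% in cluster 1 against 63.8% elsewhere, 89.2% in cluster 7 against 66.6%, and 80.7% in cluster 3 against 66.6%. These were the clusters in which Fos was called higher, by 30.4, 22.6 and 14.1 points. Fos was lower in cluster 2 (55.1% against 69.8%), and in cluster 4 its detection was only 11.4% against 74.1%. In clusters 6, 9 and 11 its detection, between 67.8% and 76.5%, was within 10 points of that in the other cells. The remaining clusters, cluster 10 among them, with 32.3% of the cells and no entry for Fos, had a mean detection of 68.4%.

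Fosb (chr7:19302696-19310051, minus strand, protein-coding), a FOS relative whose truncated splice form lacks an activation domain, followed the order of Fos in the clusters that list both, with the exception of cluster 11. Detection of Fosb was 66.3% in cluster 1 against 41.4% elsewhere and 62.5% in cluster 7 against 43.6%. Both were called higher, by 24.9 and 18.9 points. In cluster 4 it was 4.9% against 49.1%, the lowest detection of any member entry. Cluster 6 (46.7% against 44.7%) and cluster 11 (38.3% against 45.0%) were within 10 points. Thus Fosb was below its level over all cells in cluster 11, where Fos, at 68.9%, was close to its own.

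Fosl2 (chr5:32135801-32157842, plus strand, protein-coding) encodes FRA2, a FOS family protein without the strong activation domain of FOS. It had entries for 2 clusters and was lower in both. In cluster 8, 42.9% of the cells had a Fosl2 transcript against 54.8% elsewhere, a difference of -11.9 points, and in cluster 11 27.7% had one against 54.5%, a difference of -26.8 points. In the other 10 clusters, with 92.6% of the cells, the mean detection of Fosl2 was 55.2%. These include clusters 4 and 10, in which Fosl2 has no value of its own. Clusters 8 and 11 were also the clusters in which Pparg, the master regulator of adipocyte formation, was higher: its detection was 44.8% in cluster 8 against 14.1% and 89.9% in cluster 11 against 14.7%. Pparg had entries for 4 clusters, and only these 2 also list Fosl2, so a relation of the 2 genes was not tested.

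Among the JUN family, Jun (chr4:95049034-95052222, minus strand, protein-coding), the main activating partner of FOS, had few entries. Cluster 7 had a Jun detection of 74.9% against 64.1%, which was called higher by 10.8 points, and cluster 9 one of 71.5% against 64.4%, which was not called. In cluster 10 the values were 7.3% and 66.7%. The 9 clusters with no entry for Jun held 84.4% of the cells and had a mean detection of 65.7%. Cluster 1, in which Fos and Fosb had their highest detection, is among them, so Jun has no value of its own there.

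Junb (chr8:84974484-84978718, minus strand, protein-coding) encodes a JUN relative that is a weaker activator and can restrain JUN. Its detection was 97.2% in cluster 1 against 81.5% elsewhere and 92.8% in cluster 5 against 82.8%, higher by 15.7 and by just 10 points. In clusters 4 and 10 Junb was found in few cells, with 25.4% against 89.9% and 18.4% against 85.8%. In cluster 11 its detection of 78.1% was within 10 points of the 83.8% of the other cells. Put as cells without a transcript, Junb was missed in 2.8% of cluster 1 and 18.5% elsewhere, so little room was left for a larger difference.

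Jund (chr8:70698949-70700616, plus strand, protein-coding), the JUN relative that is expressed most steadily in resting cells, had entries for 8 clusters. It was called higher in clusters 0 (94.9% against 77.2%), 1 (96.2% against 77.0%), 3 (91.2% against 78.4%) and 7 (93.0% against 78.8%). In cluster 4 its detection was 20.1% against 86.1%. In clusters 2, 6 and 8 the values were 74.2%, 77.9% and 74.1%, within 10 points of the other cells. Jund was the only member with an entry for cluster 0.

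Egr1 (chr18:34859823-34864984, plus strand, protein-coding) was the member detected in the most cells. It was higher in cluster 1 (97.6% against 83.0%) and cluster 7 (95.8% against 84.3%), by 14.6 and 11.5 points. In clusters 5, 8, 9 and 11 the values ran from 89.6% to 94.1%, which was 4.8 to 9.6 points above the other cells and was not called. The lowest values were 35.0% in cluster 4 against 90.4% and 15.8% in cluster 10 against 87.4%, the latter the largest difference of any member entry at -71.6 points.

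Ier2 (chr8:84661331-84662852, minus strand, protein-coding) had entries for 3 clusters. Detection of Ier2 was 85.5% in cluster 1 against 69.3% elsewhere, higher by 16.2 points. In clusters 4 and 10 it was 16.7% against 77.4% and 9.5% against 73.6%. The clusters with no entry for Ier2 held 73.0% of the cells and had a mean detection of 78.8%. The absent members were Fosl1 (chr19:5447547-5455946, plus strand), which encodes FRA1, and Atf3 (chr1:191170296-191218039, minus strand), a stress-induced partner of JUN. Without an entry, neither has a value in any cluster.

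The sequence just upstream of the start is shown for Fos, Fosb, Junb and Jun, as examples of both families whose RefSeq starts lie close to the GENCODE starts. Each stretch is 150 bases long, runs 5′ to 3′ on the strand of the gene and ends at the base before the RefSeq transcription start (RefSeq, GRCm38.p6). Of the 8 members with an entry, 6 matched the promoter table, and Egr1 and Ier2 did not. Capitals mark the motifs searched: TGACG (the core of the cAMP response element), TGACATCA (an AP-1 and ATF type element), TATAAA and CCAAT.
Fos, chr12:85473740-85473889, plus strand: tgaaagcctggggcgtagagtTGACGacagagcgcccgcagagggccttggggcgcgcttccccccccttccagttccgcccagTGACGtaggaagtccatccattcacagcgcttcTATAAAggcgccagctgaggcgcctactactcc
Fosb, chr7:19310046-19310195, minus strand: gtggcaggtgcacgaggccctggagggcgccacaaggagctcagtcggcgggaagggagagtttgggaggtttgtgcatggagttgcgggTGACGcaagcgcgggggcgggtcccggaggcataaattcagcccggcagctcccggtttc
Junb, chr8:84978749-84978898, minus strand: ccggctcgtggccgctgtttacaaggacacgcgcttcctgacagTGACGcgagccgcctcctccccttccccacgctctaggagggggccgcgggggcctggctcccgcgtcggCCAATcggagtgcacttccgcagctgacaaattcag
Jun, chr4:95052223-95052372, minus strand: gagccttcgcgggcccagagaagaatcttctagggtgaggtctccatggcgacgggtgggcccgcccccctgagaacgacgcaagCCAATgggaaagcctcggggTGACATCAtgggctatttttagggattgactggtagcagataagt

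Motifs were searched on both strands of the 250 bases upstream of each start. TGACG was found in Fos at 129 and 66 bases before the start, in Fosb at 60 and in Junb at 106. That is 3 of the 6 members, against 17.8% of the 32851 upstream windows searched, which leave out chr18. TGACATCA was found in Jun at 45 bases before the start, and in 2.93% of all windows. TATAAA was found in Fos at 33 (12.4% of all windows), and CCAAT in Jun at 65 and Junb at 36 (33.8%). The full element TGACGTCA, which contains TGACG, and the AP-1 element TGAGTCA were found in none of the 6 members and in 1.55% and 4.46% of all windows. Jund, which was also higher in cluster 1, and Fosl2 held none of these motifs, and their RefSeq starts lie away from the GENCODE gene starts. These are matches of letters within this window only and were not tied to the detections.

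Of the 42 member entries, 15 were higher, 13 lower and 14 within 10 points. Their median difference was 3.4 points, near the 2.7 points over all 13337 entries. The share of entries called differed by cluster and is given with each cluster. Cluster 1 was the only cluster in which 6 members were listed and all 6 were higher, with a median difference of 17.7 points. The background must be set beside this: 58.8% of the 729 entries of cluster 1 were higher, and their median difference was 16.0 points. In cluster 7, all 5 listed members (Fos, Fosb, Jun, Jund and Egr1) were higher, against 59.8% of its 540 entries, and the medians were 14.2 and 12.8 points. In cluster 3 both listed members were higher, against 48.7% of the entries. The members' medians in clusters 1 and 7 were therefore near those of any gene listed there, with Fos and Fosb above them in both.

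Cluster 4 had entries for the same 6 members as cluster 1, all lower, with a median difference of -61.7 points. This was so for 92.8% of the 2072 entries of cluster 4, whose median was -47.2 points. In cluster 10 all 4 listed members (Jun, Junb, Egr1 and Ier2) were lower, with a median of -65.8 points, against 98.5% of the 718 entries and a median of -48.4 points. As a ratio of the detection inside to that outside, the members' median was 0.225 in cluster 4 against 0.171 over all its entries, and 0.155 in cluster 10 against 0.14. The members were thus low along with most listed genes of these clusters. The part of sequencing depth or RNA content in this was not tested. In cluster 4, Cd36 was an exception with 69.0% against 25.3%.

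The other clusters had fewer calls. In cluster 0 the 1 listed member, Jund, was higher, against 66.0% of the entries. In cluster 2, Fos was lower and Jund within 10 points, against 34.5% of the entries lower. In cluster 5, Junb was higher, just at the 10 points required, and Egr1 was not, against 72.1% higher among all entries. In cluster 6 none of the 3 listed members was called, where 51.9% of the entries were higher and 14.9% lower. In cluster 8, 1 of 3 (Fosl2) was lower, against 45.6%. In cluster 9 none of the 3 listed members was called, against 76.9% higher. In cluster 11, 1 of 5 (Fosl2) was lower, against 28.7%. In the clusters with the proliferation markers (5, 6 and 9), 1 of 8 member entries was therefore called.

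**Figure D2:**
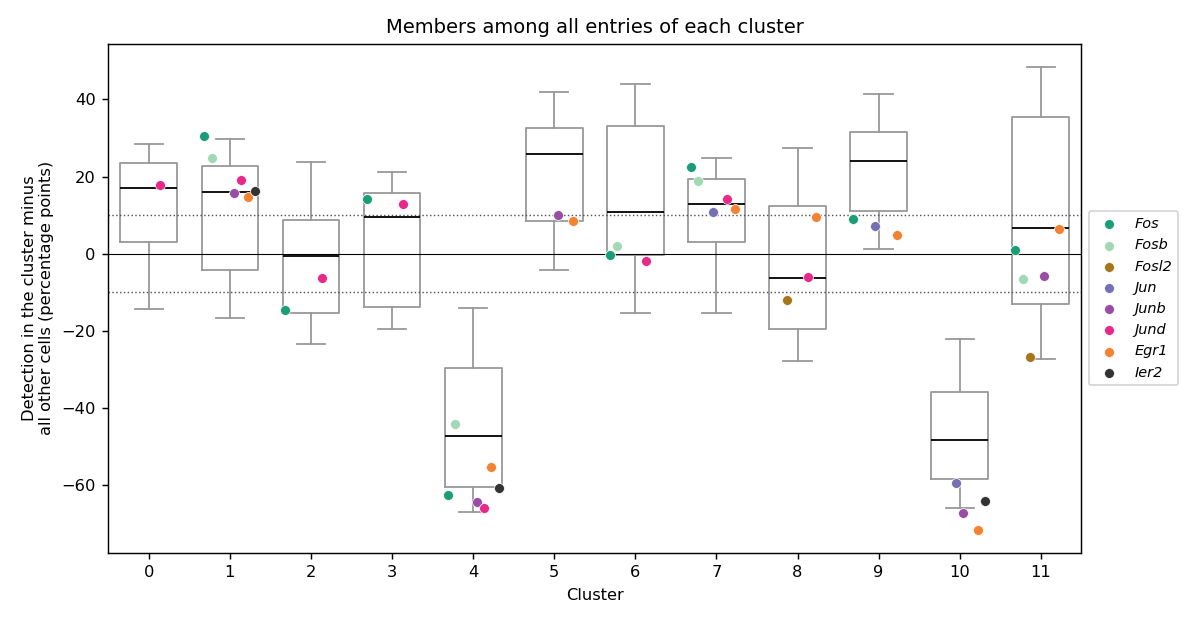
Detection in the cluster minus that in all other cells, in percentage points, for each member entry (coloured points) and for all entries of the cluster (box from the lower to the upper quartile, line at the median, whiskers at the 10th and 90th percentiles), with dotted lines at 10 points. The members lie at 14.6 to 30.4 points in cluster 1, around its median of 16.0, and at -44.2 points or lower in cluster 4, around or below its median of -47.2.

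Since the other cells of each comparison include clusters 4 and 10, where the members were low, the detection outside was recomputed without them wherever the gene had an entry there. For Fos, Fosb and Jund this leaves out cluster 4, for Jun cluster 10, and for Junb, Egr1 and Ier2 both. In cluster 1, Fos stayed higher by 23.8 points (94.2% against 70.4%), Fosb by 20.3 points (66.3% against 46.0%) and Jund also stayed higher (96.2% against 84.2%). Junb, Egr1 and Ier2 differed by 5.6, 5.3 and 6.7 points and were no longer called. Junb and Egr1 were then detected in 91.6% and 92.3% of the other cells, so neither could have reached 10 points. Thus 3 of the 6 members were higher in cluster 1, against 45.8% of all its entries treated the same way. In cluster 7, 2 of the 5 members stayed higher, Fos by 16.3 and Fosb by 14.5 points, against 45.7% of all entries. Egr1 could not be called higher there, with 92.9% in the other cells. In cluster 3 neither did, against 26.5%. Fos and Fosb in clusters 1 and 7 were thus the members farthest above the other cells on this scale, which left Junb and Egr1 little room. Jund had limited room too, with 84.2% in the other cells for cluster 1 and 85.5% for cluster 7. The order of the members on this scale therefore depends on how widely each was detected elsewhere.

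The lower detections became larger in the same step. In cluster 11, Fosb differed by -11.0 points (38.3% against 49.3%) and Junb by -14.7 points (78.1% against 92.8%), so that with Fosl2 3 of 5 members were lower, against 32.7% of its entries. Egr1 in cluster 11 turned from 6.4 to -1.8 points, within 10 points on both scales. In cluster 2 both Fos (-21.9 points) and Jund (-13.7 points) were lower, against 44.3%, and in cluster 8 Fosl2 and Jund were, against 53.6%. In cluster 8, Jund differed by -12.8 points and Egr1 by 1.0. Of the 36 entries recomputed, 5 changed sign, all from slightly higher to lower: Fos in cluster 11, Fosb in cluster 6 and Egr1 in clusters 5, 9 and 11.

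**Figure D3:**
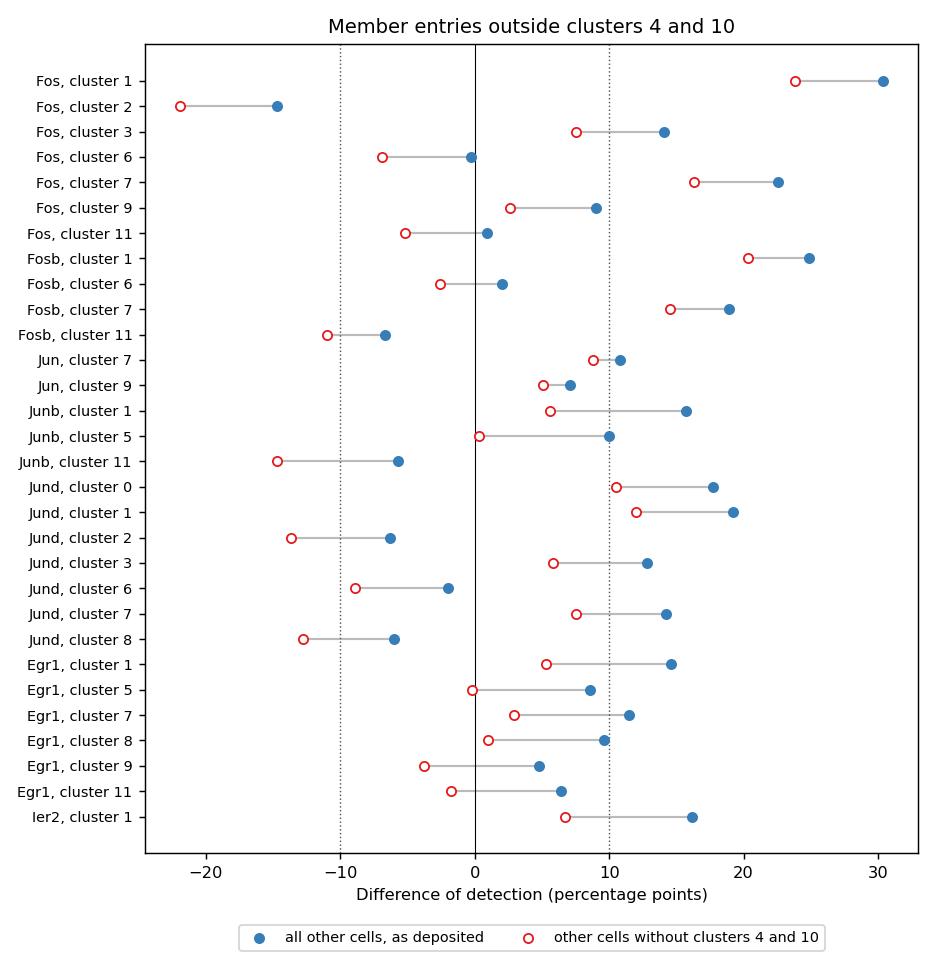
Difference of detection between the cluster and the other cells, in percentage points, for the member entries of the other 10 clusters that could be recomputed, with all other cells as deposited (filled) and without those of clusters 4 and 10 in which the gene has an entry (open), and dotted lines at 10 points. Every open point lies to the left of its filled one, and Fos in cluster 1 stays farthest to the right, at 23.8 points.

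The other immediate early genes were looked up from a list of 52, of which 40 had an entry. In cluster 1, 17 were listed, of which 13 were higher, 1 lower and 3 within 10 points, against 58.8% of all entries higher. Without clusters 4 and 10 in the other cells, 13 were higher and 2 lower, against 45.8% of all entries higher. Plk2, a kinase induced by serum, was detected in 70.6% of cluster 1 against 43.8%. The 3 other higher genes shown here were singled out after their values were seen. They were Ier3 (86.3% against 52.9%), Nr4a1, a nuclear receptor (61.8% against 37.0%), and Dusp1, a phosphatase that switches off MAP kinases (70.4% against 49.1%). Btg1, an inhibitor of proliferation, was lower with 49.6% against 68.1%. Errfi1, a feedback inhibitor of the EGF receptor, had 57.1% against 64.9%. Without clusters 4 and 10 in the other cells it was lower too, by -15.0 points. In cluster 7, 9 of the 11 listed were higher, against 59.8% of all entries, and 5 without clusters 4 and 10, against 45.7%, which is near the background. Among them was the matrix protein gene Ccn2 (69.6% against 46.5%), whereas Plk2 was lower (36.8% against 48.4%).

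In cluster 11, 13 of the 26 other immediate early genes listed were lower and 6 higher, against 28.7% of all entries lower. Ccn2 was detected in 1.6% of its cells against 48.8% and Plk2 in 12.9% against 48.2%, while Btg1 was higher with 98.9% against 65.0%. Errfi1 was within 10 points there (55.8% against 63.9%). The list thus held calls in both directions in cluster 11, and without clusters 4 and 10 in the other cells 16 were lower and 6 higher. In clusters 4 and 10 all 17 and all 12 listed were lower, as were most genes there.

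Known target genes of AP-1 were looked up from a list of 20, of which 14 had an entry. In cluster 1, 6 of the 11 listed were higher and none lower, against 58.8% of all entries higher, and without clusters 4 and 10 in the other cells 5 were higher, against 45.8%. These shares were near the background. In cluster 11 none of the 12 listed was higher and 10 were lower, against 28.7% of all entries lower. Mmp3, a matrix metalloproteinase, was detected in 87.7% of cluster 1 against 42.6%, in 76.2% of cluster 3 against 45.7% and in 17.8% of cluster 11 against 49.4%. The metallothionein genes Mt1 and Mt2 were detected in most cells, with 97.8% and 87.7% in cluster 0, and Mt2 was lower in cluster 7 (81.3% against 92.4%). In cluster 7, where Fos and Fosb were high, only 2 target genes were listed and none was higher. In cluster 8, 8 of the 12 listed target genes were lower, against 45.6% of all entries.

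**Figure D4:**
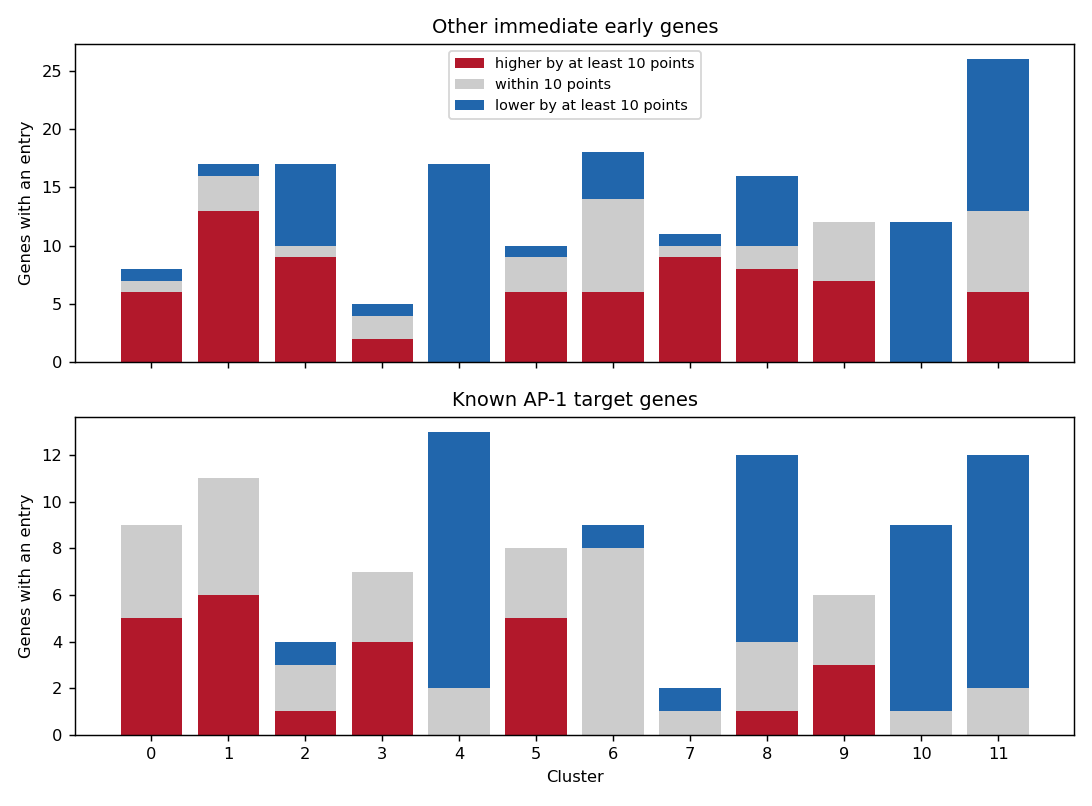
Number of genes with an entry in each cluster for the list of other immediate early genes (upper panel) and of known AP-1 target genes (lower panel), split into higher by at least 10 points, within 10 points and lower by at least 10 points than all other cells. In cluster 1, 13 of 17 and 6 of 11 genes are higher, and in cluster 11, 13 of 26 and 10 of 12 are lower.

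Of 20 other AP-1 and bZIP partners, 9 had an entry. Outside clusters 4 and 10, 10 of their 25 entries were higher and 10 lower, where the median over all entries was 10.2 points. The share of all entries called differed by cluster, so the calls are given by cluster. Both listed in cluster 3 were higher, against 48.7% of all entries. The 1 listed in each of clusters 0, 5 and 9 was higher, against 66.0%, 72.1% and 76.9%. In cluster 6, 1 of 5 was higher and 1 lower, against 51.9% and 14.9%. In cluster 1, 2 of the 3 listed were higher and 1 lower, against 58.8% of all entries higher. All 3 listed in cluster 2 were lower, against 34.5% of all entries lower. In cluster 8, 2 of 3 were lower and 1 higher, against 45.6% lower. In cluster 11, 3 of 6 were lower and 1 higher, against 28.7% lower. Atf5, a stress-responsive bZIP factor, was detected in 94.4% of cluster 0 against 70.8% but in 52.0% of cluster 2 against 77.3% and in 49.3% of cluster 8 against 75.8%. Nfe2l1, a regulator of proteasome genes, was higher in cluster 1 (84.1% against 65.3%). Maf was lower in cluster 1 (23.9% against 45.4%) and higher in cluster 8 (74.0% against 40.4%). Jdp2, which represses AP-1 in pairs with JUN, was higher in cluster 5 (53.3% against 22.6%) and lower in cluster 11 (5.2% against 25.7%).

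Of 21 kinases and factors upstream of AP-1, 8 had an entry, and none had one in clusters 1, 3 or 7, in which Fos was higher. Hras, a small GTPase at the head of the MAP kinase cascade, was detected in 92.7% of cluster 9 against 63.3%, and the kinase gene Map2k2 in 85.8% of cluster 0 against 67.9%. Mapk3, which encodes the kinase ERK1, was lower in cluster 2 (26.3% against 43.3%). Fos had no entry in cluster 0 and was within 10 points of the other cells in cluster 9.

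Heat shock genes, which rise when cells are stressed, were given beside the members since all cells were trypsinized. Of 13, 9 had an entry, and outside clusters 4 and 10, 5 of 30 entries were higher, 1 lower and 24 within 10 points. The median over all entries of those clusters was 10.2 points. Hsp90aa1 was detected in 93.4% of all cells and Hspd1 in 91.3%, so neither could be called higher in those clusters. This count thus could not show how far the cells were stressed. In cluster 1, 1 of the 3 listed was higher, against 58.8% of all entries. It was Hspb1, with 79.3% against 49.8%, and Hspd1 was within 10 points (95.7% against 90.6%). In cluster 7, 1 of the 5 listed was higher, against 59.8% of all entries. It was Dnajb4, with 53.0% against 35.3% (named after its value was seen). Hsp90aa1 (97.8% against 93.1%), Hspd1 (89.0% against 91.5%) and Dnaja1 (96.0% against 86.4%) were within 10 points. Of the 4 listed in cluster 0, 2 were higher, against 66.0% of all entries. Of the 3 listed in cluster 6, 1 was higher and 1 lower, against 51.9% and 14.9%. The part of handling stress in the members' values was not tested.

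Of 7 PPAR and browning regulators, 3 had an entry. Pparg was lower in cluster 1 (4.0% against 17.8%). Cebpa, which acts with PPARG in adipocyte formation, was detected in 49.4% of cluster 8 against 25.8% and in 98.7% of cluster 11 against 26.1%, and Ppargc1a, the coactivator of mitochondrial genes, in 47.5% of cluster 11 against 1.8%. Cluster 11 thus had high detection of these regulators with low detection of Fosl2, Mmp3 and Ccn2. Against all other cells, Fos, Fosb, Junb and Egr1 were within 10 points there. Without clusters 4 and 10 in the other cells, Fosb (-11.0 points) and Junb (-14.7 points) were lower as well. Fos (-5.2 points) and Egr1 (-1.8 points) stayed within 10 points. Cluster 1 had low detection of Pparg with high detection of Mmp3, Fos and Fosb, and no entry for Fosl2 or Ccn2.

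The genes whose detection followed a member most closely over the clusters were sought for the members with entries for at least 6 clusters. For Fos they were Dst, Cd302 and Svep1 (Pearson's r of 0.999, 0.997 and 0.997 over 6 clusters each, of 324 genes compared). For Jund they were Sars and Ahnak (0.999 for both, 6 clusters) and Atp6v0b (0.998, 7 clusters), of 336 genes. For Egr1 they were Eef2 and Fth1 (0.996 for both, over 6 and 7 clusters) and Ctsl (0.994, 6 clusters), of 312 genes. The clusters share libraries and depth, and the low detection in clusters 4 and 10 enters these values. Without those clusters none of the 9 genes kept its place, and over 6 clusters each the closest gene was Lamp1 for Fos (r of 0.951), Lgalsl for Jund (0.998) and Svep1 for Egr1 (0.457). Only 54 genes could then be compared for Egr1, whose detection ran just from 89.6% to 97.6% in these clusters. Among those genes none had a close pattern.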

How the data were processed

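White preadipocytes (day 0) and differentiating adipocytes (day 6) of WT and DKO mice were profiled by droplet single-cell RNA sequencing, with 2 samples per group and groups taken from the sample labels. Per the study's methods and the submitters' processing notes, the authors mapped the reads to mm10 with Cell Ranger 6.0.0, aggregated the samples, and used Seurat to filter, normalize and cluster the cells; contaminating immune, endothelial and glial cells were taken out before they compared each cluster with all other cells. Removal of doublets is not described in the sources used here, and no caller could be run, since the table holds no single cells or barcodes.

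The authors deposited 1 table of cluster markers, in which detection is given as 2 fractions per entry, that of the cells inside the cluster and that of all other cells with the gene detected. The larger of the 2 was never under 10.1%. These fractions were turned into percents. The table also holds the authors' own comparisons (log2 fold changes, p-values and adjusted p-values), and these columns were not used, although whether a gene has an entry depended on them. Columns of per-sample values that stayed unused numbered 0. The pooled table gives neither depth nor cell numbers, so no interval, SD or test was possible.

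Calculations used Python 3.11.15, with pandas 2.3.3, numpy 2.4.6 and scipy 1.17.1, and figures matplotlib 3.10.9. The shares of the 12 clusters were solved from the 10 genes with an entry in each cluster, by least squares, since the 2 detections of any entry of a gene must average to the same detection over all cells. The shares summed to 99.9%, and over the 2687 genes with entries in 2 or more clusters the detection over all cells differed by at most 0.13 points. The steps were tested on simulated data. From the shares the detection over all cells, in the clusters without an entry and in the other cells without clusters 4 and 10 were computed. In 35 entries a spreadsheet had turned the symbol into a date, and these were left out of steps by gene. The named genes were the members, at most 4 genes per list (those with entries in the most clusters) and the 3 genes most like each member with entries for at least 6 clusters. Ier3, Nr4a1, Dusp1 and Dnajb4 were named outside this rule, after their values were seen. Values of 2 genes that this rule names are not reported here. The members, lists and thresholds were chosen with earlier results of these data known. Gene positions came from GENCODE M21 and promoters from RefSeq.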

Additional observations from a re-analysis of the deposited data

How the results depend on the processing

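No paired analysis was possible because all samples were pooled by the authors, and for the same reason no sample could be left out. With a difference of at least 20 points in place of 10, the members called higher were 2 in cluster 1, 1 in cluster 7 and 0 in clusters 0, 3 and 5, and those called lower were 0 in clusters 2 and 8. With at least 5 points, 2 were lower in cluster 2, 2 higher in cluster 5, 1 higher and 2 lower in cluster 8, 2 higher in cluster 9, and 1 higher and 3 lower in cluster 11. With a ratio of detections of at least 5 to 4 in place of a difference, 3 were higher in cluster 1, 2 in cluster 7 and 0 in clusters 0, 3 and 5. All listed members stayed lower in clusters 4 and 10 under each of these settings. With clusters 4 and 10 taken out of the other cells, an alternative chosen after seeing the data, 3 were higher in cluster 1, 2 in cluster 7 and 0 in clusters 3 and 5, and 2 were lower in cluster 2, 2 in cluster 8 and 3 in cluster 11. The differences that turned were those of Fos in cluster 11 (-5.2 points), Fosb in cluster 6 (-2.6) and Egr1 in clusters 5 (-0.2), 9 (-3.8) and 11 (-1.8). By construction, the detection outside rises when cells of low detection are left out. Junb and Egr1 were then detected in too many of the other cells to be called higher. The median difference over the member entries was 9.3 points without the entries of clusters 4 and 10, against 3.4 with them, and that over all entries 10.2 against 2.7. Of the 3 genes most like each of Fos, Jund and Egr1, 0 were kept with Spearman's correlation, with at least 8 shared clusters or without clusters 4 and 10. A filter at a detection of 25% moved none of the 13 counts, and the cluster with the highest detection was the same for all 8 members when ranked by detection inside or by ratio. Shares solved from every gene with entries in 2 or more clusters moved no detection over all cells or in the clusters without an entry by more than 0.2 points. The unknown depth per cell limits every detection.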
